A study of Homo sapiens with 12 samples.

Results

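A set of 35 genes among the 57773 in the count files was higher in senescent than in proliferating WI-38 fibroblasts and lower after silencing of either NTRK2 or BDNF in the senescent cells. The members were chosen by their measured values: a mean of at least 5 CPM (the gene's count per 1000000 counts of the library) in siCtrl_Sen, a siCtrl_Sen mean at least 2 times the siCtrl_Prolif mean, a log2 ratio of means to siCtrl_Sen of -0.25 or below in both silenced groups, and all 6 silenced libraries below all 3 siCtrl_Sen libraries. Of the 35 genes, 12 lie in the mitochondrial genome and 23 are nuclear. The 3 contrasts that chose them are described below without a test, and the only contrast tested on the members is siNTRK2_Sen against siBDNF_Sen.

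WI-38 is a line of human diploid fibroblasts, kept here between population doubling levels 15 and 25, and bulk RNA was sequenced from 12 libraries in 4 groups of 3. The group siCtrl_Prolif received a non-targeting siRNA pool (siCtrl) and vehicle (DMSO) for 8 days, and siCtrl_Sen received the same siCtrl pool with etoposide, which poisons topoisomerase and so breaks DNA, at 50 µM over 8 days. The groups siNTRK2_Sen and siBDNF_Sen had the same etoposide treatment with an siRNA pool against NTRK2, which encodes the receptor TrkB, or against BDNF, a ligand of TrkB. Every group, controls included, was transfected at 25 nM, and each knockdown rests on 1 siRNA pool. The study's methods describe its cell culture experiments as independently repeated, but the labels do not tie a library to an experiment, and p-values measure the spread between these libraries.

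Senescent cells have left the cell cycle for good but stay metabolically active, and they carry enlarged mitochondrial networks and secrete many proteins. The mitochondrial genome encodes mRNAs for subunits of the respiratory chain together with the ribosomal and transfer RNAs that translate them, all cut from long transcripts of its 2 strands. BDNF binding to TrkB starts kinase signalling that is best known from neurons.

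The libraries held between 31567912 and 72328151 counts, and 3 counts corresponded to 0.0415 to 0.0950 CPM, a floor that covers counting error only. NTRK2 had 11, 1 and 1 counts in siCtrl_Prolif, 7, 15 and 10 in siCtrl_Sen, 0 in each siNTRK2_Sen library and 10, 23 and 29 in siBDNF_Sen. The knockdown of NTRK2 was thus read from very few counts. BDNF stood at 153 ± 6.77 CPM (SD, n = 3) in siCtrl_Prolif, 161 ± 4.77 in siCtrl_Sen, 48.7 ± 2.90 in siBDNF_Sen and 206 ± 0.747 in siNTRK2_Sen. Neither gene was called as changed with senescence (edgeR quasi-likelihood test, adjusted p = 0.508 for BDNF and 0.188 for NTRK2). All 8 fibroblast markers reached 1 CPM in every group, while the 3 endothelial markers summed to at most 3.26 CPM in any library and the 4 epithelial markers to 64.8 to 80.2 CPM. Markers listed for leukocytes, of which 1 of 4 reached 1 CPM in siCtrl_Sen, summed to 48.8 to 53.9 CPM in siCtrl_Prolif, 106 to 116 in siCtrl_Sen, 77.6 to 81.0 in siNTRK2_Sen and 186 to 188 in siBDNF_Sen. The 4 neuronal markers, 3 of them over 1 CPM, summed to 209 to 233, 267 to 284, 201 to 222 and 322 to 328 CPM in the same order, and the 4 smooth muscle markers, again with 3 over 1 CPM, to 404 to 446, 352 to 383, 298 to 312 and 269 to 271 CPM. The part of these markers in the levels of the members was not tested. MKI67, a marker of cycling cells, was at 15.8 ± 0.512 CPM in siCtrl_Prolif, 1.27 ± 0.421 in siCtrl_Sen, 4.21 ± 0.297 in siNTRK2_Sen and 2.43 ± 0.440 in siBDNF_Sen. CDKN1A, the cell cycle inhibitor p21, was at 906 ± 17.4, 2855 ± 62.8, 2043 ± 71.2 and 2885 ± 37.1 CPM in the same order. The further senescence markers GDF15, CDKN2A, LMNB1 and HMGB2 had log2 ratios of siCtrl_Sen to siCtrl_Prolif of 2.55, 0.276, -4.17 and -2.79. Their log2 ratios to siCtrl_Sen were -0.601, 0.225, 0.636 and 0.327 with siNTRK2. With siBDNF these were 0.0854, 0.1998, -0.0917 and -0.00792. Among all these markers, only MKI67 had a siBDNF_Sen mean shifted from siCtrl_Sen toward siCtrl_Prolif, whereas with siNTRK2 all but CDKN2A had. In bulk RNA a smaller share of senescent cells and less of a transcript per cell cannot be told apart, and the part of MKI67-positive cells in the fall of the members was not tested.

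**Figure D1:**
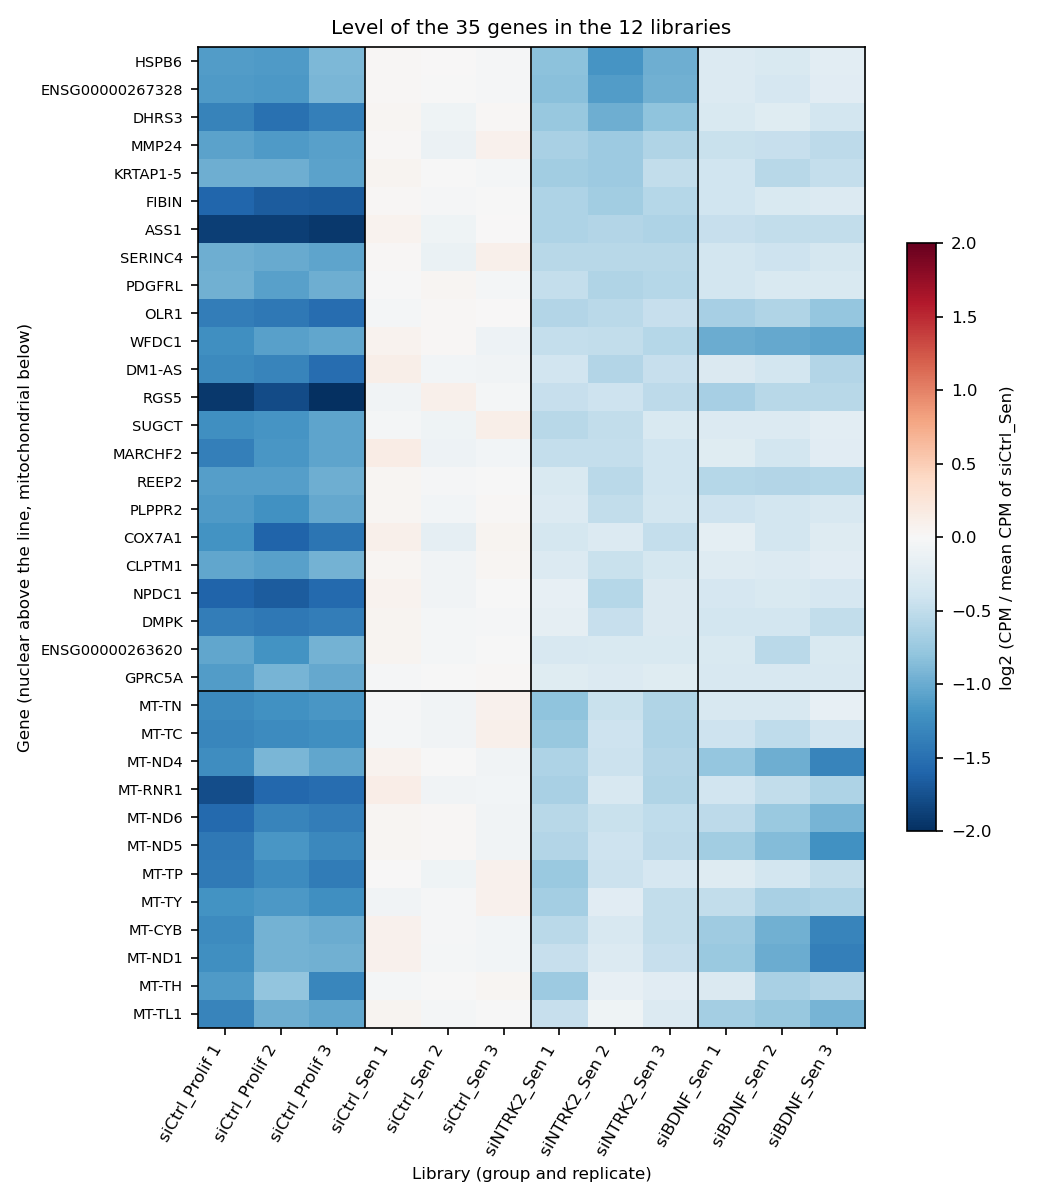
Colour gives the log2 of each library's CPM over the siCtrl_Sen mean for the 35 genes (rows, nuclear above the line and mitochondrial below) in the 12 libraries (columns, by group and replicate). Proliferating libraries are the darkest blue for most genes, and siBDNF_Sen replicate 3 is the lowest of its group for 8 of the 12 mitochondrial genes.

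Of the 11728 genes at or over the level floor, 356 (3.04%) rose at least 2 times with senescence, and 193 (1.65%) met both silencing ratios with no overlap. Both conditions together left the 35 members and 321 other genes with the senescence rise. Over the members the median log2 ratio was 1.15 for siCtrl_Sen over siCtrl_Prolif, a 2.22-fold rise, -0.49 for siNTRK2_Sen over siCtrl_Sen and -0.41 for siBDNF_Sen over siCtrl_Sen. The medians over all genes at the floor were -0.01, 0.02 and 0.05. The largest rise was 3.76-fold, in RGS5, and no member rose 4 times. Expressed as a share of the senescence rise, the median member lost 47.8% of it with siNTRK2 and 43.2% with siBDNF. Both siRNA groups are set against the same 3 siCtrl_Sen libraries, so the values of the 2 silencing contrasts are given side by side and no agreement is read from them.

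PLAT, which encodes tissue plasminogen activator and is the gene proposed as the marker of this set, did not meet the rule. Its level was 164, 165 and 173 CPM in siCtrl_Prolif, 547, 516 and 544 in siCtrl_Sen, 371, 361 and 362 in siNTRK2_Sen, and 448, 463 and 466 in siBDNF_Sen. All 6 silenced libraries were below the 3 siCtrl_Sen libraries, but the siBDNF log2 ratio of -0.22 missed the limit of -0.25, whereas its log2 rise was 1.68 and its siNTRK2 log2 ratio -0.56. With TMM or DESeq2 scaling in place of column totals PLAT met every condition. In the direct comparison PLAT was lower with siNTRK2 than with siBDNF by 0.30 ± 0.04 on the log2 scale (SE; edgeR quasi-likelihood test, adjusted p = 3.20e-05).

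The members closest to the rise limit were PDGFRL (2.006-fold), KRTAP1-5 (2.007-fold) and SERINC4 (2.02-fold), and QPRT (1.99-fold), MT-ND2 (1.98-fold) and IFI27L1 (1.97-fold) lay just outside. For the siBDNF log2 ratio CLPTM1 (-0.2501), SUGCT (-0.2509) and HSPB6 (-0.262) were just inside, and ADIRF (-0.249), CYB5D2 (-0.243) and HSPB7 (-0.237) just outside. For the siNTRK2 log2 ratio GPRC5A (-0.253), MT-TL1 (-0.264) and the gene ENSG00000263620 (-0.309) were inside, and HAGH (-0.226), HSD17B14 (-0.143) and P3H2 (-0.125) outside. At the level floor the inner genes were COX7A1 (8.10 CPM), MT-TH (8.37 CPM) and ENSG00000263620 (15.1 CPM), and MT-TV (3.51 CPM), CEACAMP10 (3.39 CPM) and TMEM38A (3.30 CPM) fell below it. LIN7B and H2BC12L failed by overlap alone. Of the 68 genes with the rise whose 6 silenced libraries all lay below siCtrl_Sen, 26 missed the siBDNF ratio only and 3 missed the siNTRK2 ratio only.

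HSPB6 encodes a small heat shock protein (Hsp20) of muscle and other contractile cells and lies on the minus strand at chr19:36245467-36248980 (GRCh37). It was at 176, 173 and 204 CPM in siCtrl_Prolif, 383, 380 and 374 in siCtrl_Sen, 214, 167 and 193 in siNTRK2_Sen and 314, 306 and 329 in siBDNF_Sen. The siNTRK2_Sen libraries overlapped the proliferating ones, whereas the siBDNF_Sen libraries lay between the proliferating and the senescent controls. The log2 ratios to siCtrl_Sen were -0.99 and -0.26, which is 96.4% of the senescence rise with siNTRK2 and 32.3% with siBDNF. An unnamed antisense lncRNA, ENSG00000267328, overlaps HSPB6 on the plus strand (chr19:36245467-36246391) and is also a member, with log2 ratios of -0.97 and -0.28. The count of HSPB6 over that of ENSG00000267328 stayed between 1.44 and 1.53 in all 12 libraries. The libraries were made with a stranded kit, but the strand setting of the counting was not given in the sources used here, so the 2 genes may hold the same reads and are reported as an uncertain pair. Its promoter window is printed here because HSPB6 had the lowest siNTRK2 ratio among the members, with the CCAAT box (on the minus strand relative to the gene) and the TATA box in capitals, the latter starting 29 bases before the start site (RefSeq, GRCh38.p14, minus strand, chr19:35756980-35757279):
HSPB6: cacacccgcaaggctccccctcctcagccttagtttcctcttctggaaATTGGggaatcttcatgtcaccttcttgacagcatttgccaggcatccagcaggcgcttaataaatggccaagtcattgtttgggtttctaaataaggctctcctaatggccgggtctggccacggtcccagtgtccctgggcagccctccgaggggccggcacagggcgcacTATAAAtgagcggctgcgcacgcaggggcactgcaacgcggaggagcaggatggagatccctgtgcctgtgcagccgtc

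WFDC1, a secreted protein with a whey acidic protein domain, showed the opposite order of the 2 siRNAs. Its level was 17.9, 19.6 and 20.2 CPM in siCtrl_Prolif, 43.98, 42.2 and 39.01 in siCtrl_Sen, 29.9, 29.8 and 28.1 in siNTRK2_Sen and 20.9, 20.5 and 20.1 in siBDNF_Sen. The siBDNF_Sen libraries came down to within or just above the proliferating range and the siNTRK2_Sen libraries stayed further above it, with 94.4% and 55.4% of the rise removed. DHRS3, a retinaldehyde reductase, followed the pattern of HSPB6, at 10.6, 9.58 and 10.4 CPM in siCtrl_Prolif, 27.7, 25.4 and 27.4 in siCtrl_Sen, 15.9, 13.6 and 15.4 in siNTRK2_Sen and 21.7, 22.7 and 20.7 in siBDNF_Sen. Its siNTRK2_Sen and siBDNF_Sen libraries did not overlap, and the share of its rise removed was 71.2% and 30.9%.

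The 3 members with the largest senescence rise, RGS5, ASS1 and FIBIN, were nuclear. RGS5, a regulator of G protein signalling found in pericytes and smooth muscle, was at 5.87, 6.50 and 5.54 CPM in siCtrl_Prolif and at 21.3, 24.2 and 21.9 in siCtrl_Sen. Silencing left it at 16.3, 16.9 and 15.6 CPM with siNTRK2 and at 14.1, 15.4 and 15.3 with siBDNF, well above the proliferating level in all 6 libraries. ASS1, the argininosuccinate synthase of arginine synthesis, rose 3.73-fold, from 16.2, 16.2 and 15.8 to 63.2, 56.2 and 60.5 CPM. It was at 39.2, 39.8 and 39.2 CPM with siNTRK2 and at 43.7, 42.6 and 42.6 with siBDNF, again between the 2 controls. OLR1, a surface receptor for oxidised low-density lipoprotein, rose 2.72-fold to 34.2, 35.9 and 35.6 CPM and was at 23.5, 24.2 and 25.5 CPM with siNTRK2 and 22.1, 23.2 and 20.6 with siBDNF.

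**Figure D2:**
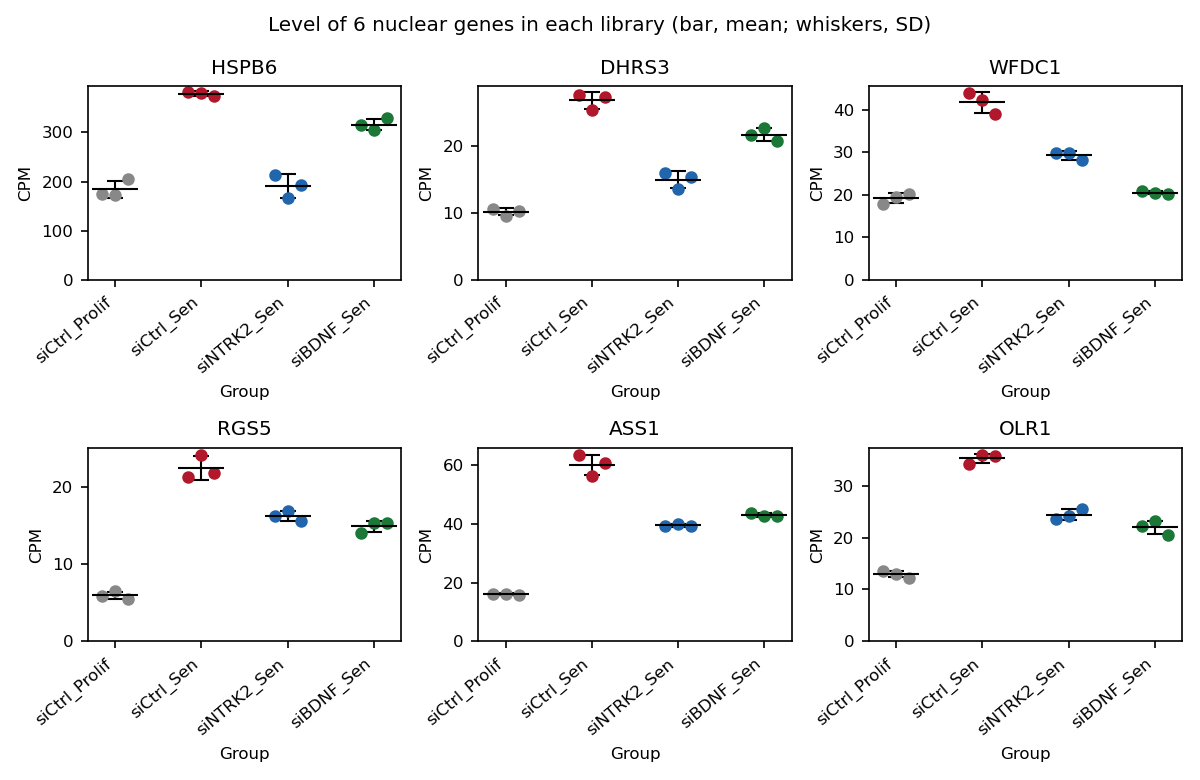
Points are the CPM (vertical axis, from 0) of single libraries by group (horizontal axis) for 6 nuclear genes, with the mean as a bar and the SD as whiskers, n = 3. HSPB6 and DHRS3 are lower with siNTRK2 than with siBDNF, WFDC1 is the reverse, and RGS5, ASS1 and OLR1 stay above siCtrl_Prolif in all 6 silenced libraries.

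Among the other nuclear members FIBIN, a secreted protein, rose 3.12-fold and had log2 ratios of -0.63 with siNTRK2 and -0.33 with siBDNF. NPDC1, a membrane protein of neural cells, rose 3.05-fold, with ratios of -0.33 and -0.32. DMPK, the myotonic dystrophy protein kinase, rose 2.64-fold (ratios -0.31 and -0.41), and DM1-AS, a lncRNA on its opposite strand, was a member too, with a DMPK to DM1-AS count ratio between 4.96 and 6.16. COX7A1, a subunit of cytochrome c oxidase, rose 2.66-fold at a low level, with ratios of -0.36 and -0.28. CLPTM1, a membrane protein of the secretory pathway, had 285, 262 and 284 CPM in siCtrl_Sen, 229, 204 and 218 with siNTRK2 and 232, 229 and 237 with siBDNF.

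MMP24, a membrane-anchored metalloproteinase, was the only member in any of 15 lists of pathways and gene families. It was at 31.4, 28.5 and 32.9 CPM in siCtrl_Sen, at 19.8, 18.8 and 20.4 with siNTRK2 and at 22.6, 22.4 and 21.5 with siBDNF. The antisense gene MMP24OS overlaps it and had a like pattern without being a member, with a log2 rise of 0.79 and ratios of -0.60 and -0.40, and without the strand setting their reads cannot be told apart. In all, 1 of 23 nuclear members (4.35%), 70 of the 314 other induced nuclear genes (22.3%) and 762 of all 11728 genes at the floor (6.50%) were in a list. No member was among the secreted cytokines and chemokines, the growth factors or the p53 target genes, of which 1, 9 and 10 rose at least 2 times. The nuclear members were 23 beside 314 other induced nuclear genes. Lists with so few induced genes could readily hold none of them, and nothing is read from that absence.

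The remaining nuclear members were GPRC5A, an orphan receptor induced by retinoic acid, the membrane-shaping protein REEP2, the ubiquitin ligase MARCHF2, the CoA-transferase SUGCT, PLPPR2, SERINC4, KRTAP1-5, PDGFRL and ENSG00000263620, an annotated protein-coding transcript that overlaps VAMP2 and PER1. Over the 23 nuclear members the log2 rise ran from 1.004 to 1.91 with a median of 1.12, the siNTRK2 ratio from -0.99 to -0.25 with a median of -0.48, and the siBDNF ratio from -1.03 to -0.25 with a median of -0.37. KRTAP1-5 belongs to a family of closely similar genes, and SERINC4 lies across SERF2 and HYPK on the opposite strand, so their counts are uncertain as well.

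The 12 mitochondrial members were the mRNAs MT-ND1, MT-ND4, MT-ND5 and MT-ND6 of complex I and MT-CYB of complex III, the ribosomal RNA MT-RNR1, and the tRNAs MT-TN, MT-TC, MT-TY, MT-TL1, MT-TP and MT-TH. The libraries were made with an mRNA kit, so counts at the ribosomal RNA and tRNA genes may not follow the levels of the mature RNAs. MT-ND4 was at 1302, 1639 and 1507 CPM in siCtrl_Prolif, 3246, 3075 and 2928 in siCtrl_Sen, 2001, 2300 and 2046 in siNTRK2_Sen and 1800, 1559 and 1234 in siBDNF_Sen. MT-ND1 was at 365, 448 and 440 CPM, 913, 839 and 822, 627, 707 and 620, and 515, 430 and 333 in the same order. For both mRNAs 2 of the 3 siBDNF_Sen libraries were within or below the proliferating range and no siNTRK2_Sen library was, with 98.1% of the MT-ND1 rise removed by siBDNF and 46.9% by siNTRK2.

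MT-RNR1, the small ribosomal RNA, had the largest rise of the 12, from 235, 272 and 279 CPM to 876, 764 and 769. It was at 515, 641 and 527 CPM with siNTRK2 and 615, 569 and 523 with siBDNF, overlapping ranges with log2 ratios of -0.52 and -0.50. MT-ND6, the mRNA on the minus strand, was at 169, 200 and 190 CPM in siCtrl_Prolif, 514, 507 and 476 in siCtrl_Sen, 338, 364 and 351 in siNTRK2_Sen and 349, 298 and 262 in siBDNF_Sen. Here replicate 1 of siBDNF_Sen lay inside the siNTRK2_Sen range and replicates 2 and 3 below it.

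The other mitochondrial genes were read in the same way. Of the 37 genes of that genome 30 were at the level floor, 19 of them rose at least 2 times, and 7 mRNAs (MT-ND2, MT-CO1, MT-CO2, MT-ATP8, MT-ATP6, MT-CO3 and MT-ND4L) met every condition except the rise. Over the 13 mRNAs the median log2 ratio was 0.99 with senescence, -0.45 with siNTRK2 and -0.91 with siBDNF, and all but MT-ND3 had a lower mean with siBDNF than with siNTRK2. MT-CO1, which encodes a catalytic subunit of cytochrome c oxidase, rose 1.76-fold and had log2 ratios of -0.37 and -0.96. A list of 90 nuclear respiratory chain genes, made after values were seen, had medians of 0.13, -0.15 and -0.12, and COX7A1 was its 1 gene that rose 2 times.

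**Figure D3:**
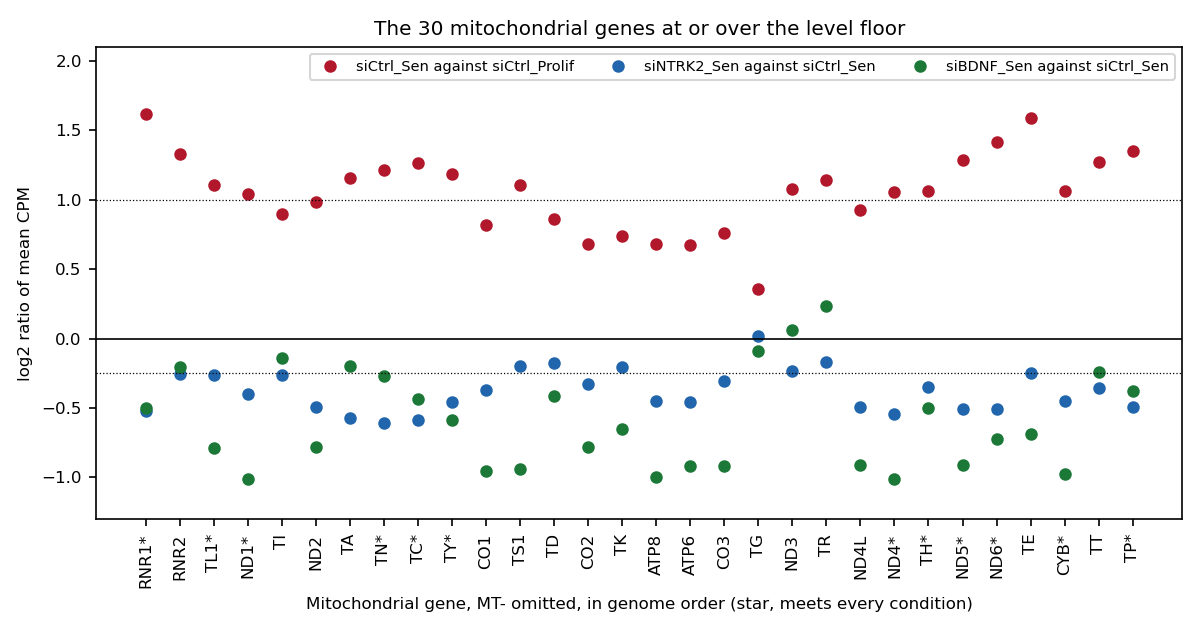
The log2 ratio of mean CPM (vertical axis) is plotted for the 30 mitochondrial genes at the level floor in genome order (horizontal axis), with the limits of the rule as dotted lines and members starred. For 12 of the 13 mRNAs the green points (siBDNF) lie below the blue ones (siNTRK2), while MT-RNR1 has both at about the same height and MT-TN, MT-TC and MT-TP have them in the other order.

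The minus-strand tRNA genes MT-TA, MT-TN, MT-TC and MT-TY lie side by side, and the last 3 were members. MT-TN was at 98.3, 103 and 106 CPM in siCtrl_Prolif, 234, 225 and 253 in siCtrl_Sen, 136, 175 and 157 in siNTRK2_Sen and 190, 190 and 211 in siBDNF_Sen. The siNTRK2_Sen and siBDNF_Sen libraries did not overlap, and the order was the reverse of that of all mRNAs but MT-ND3. Without the strand setting, counts of the minus-strand genes, MT-ND6 included, may also hold reads of plus-strand transcripts, so this contrast is uncertain. The genes are shown because they are so short (66 to 73 bases) that a read can extend past them, and because MT-TC and MT-TY share 1 base, in capitals (GRCh37, minus strand, MT-TN chrM:5657-5729, MT-TC chrM:5761-5826 and MT-TY chrM:5826-5891):
MT-TN: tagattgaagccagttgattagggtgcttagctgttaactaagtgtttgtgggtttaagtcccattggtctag
MT-TC: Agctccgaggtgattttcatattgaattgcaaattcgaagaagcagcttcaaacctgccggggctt
MT-TY: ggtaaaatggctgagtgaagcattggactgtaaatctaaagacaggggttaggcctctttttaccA
Mitochondrial mRNA also has nuclear copies with closely similar sequence, and how reads with several matches were counted was not given in the sources used here.

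The mitochondrial and nuclear members differed between replicates of a group. In siNTRK2_Sen, replicate 2 was the highest library for 11 of the 12 mitochondrial members and the lowest for 15 of the 23 nuclear ones, and replicate 1 was the lowest for 11 mitochondrial members. Summed over the mitochondrial members the level was 8587, 8108 and 7870 CPM in siCtrl_Sen, 5434, 6296 and 5602 in siNTRK2_Sen and 5168, 4529 and 3772 in siBDNF_Sen. The nuclear members summed to 1819, 1739 and 1780 CPM in siCtrl_Sen, 1255, 1095 and 1195 in siNTRK2_Sen and 1405, 1387 and 1430 in siBDNF_Sen. The siBDNF_Sen libraries thus varied more in the mitochondrial than in the nuclear sum. With CPM taken over nuclear counts alone, all 35 members still met the rule and 43 genes did in all.

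The direct comparison asked whether the 2 knockdowns left the members at different levels. Of 35 members, 5 were lower and 9 were higher with siNTRK2 than with siBDNF at an adjusted p under 0.05 (edgeR quasi-likelihood test, Benjamini-Hochberg over 21518 genes), and 21 did not pass. Over all genes tested 7.86% were lower and 8.84% higher, and over the genes at the level floor, to which all members belong, 11.4% and 13.4%. The members' shares were 14.3% lower, near that background, and 25.7% higher, and over the nuclear members alone 17.4% and 13%. The rule used the levels of both silenced groups, so these shares are no test of the members as a set. Overlapping genes and mitochondrial genes cut from shared transcripts are also not independent of each other. The 5 lower members were HSPB6 (log2 difference -0.69 ± 0.07, SE; adjusted p = 7.89e-08), its antisense partner ENSG00000267328 (-0.65 ± 0.07), DHRS3 (-0.49 ± 0.07; adjusted p = 2.84e-05), MT-TN (-0.30 ± 0.07; adjusted p = 0.00333) and FIBIN (-0.27 ± 0.07; adjusted p = 0.00988). WFDC1 was higher with siNTRK2 by 0.55 ± 0.07 (adjusted p = 9.11e-07). MT-ND1 (0.66 ± 0.10), MT-TL1 (0.57 ± 0.09), MT-CYB (0.57 ± 0.09), MT-ND4 (0.51 ± 0.09) and MT-ND5 (0.45 ± 0.08) were higher with adjusted p between 2.07e-05 and 0.000305.

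The other 3 higher members were MT-ND6 (0.26 ± 0.07; adjusted p = 0.0123), REEP2 (0.21 ± 0.06; adjusted p = 0.0208) and OLR1 (0.19 ± 0.06; adjusted p = 0.0369), and these calls were less firm. Without siBDNF_Sen replicate 3 the adjusted p was 0.133 for MT-ND6, 0.0600 for REEP2, 0.212 for OLR1 and 0.0754 for FIBIN, which left 4 lower and 6 higher members. REEP2 also missed the threshold without siNTRK2_Sen replicate 1 or siBDNF_Sen replicate 1 or 2 (adjusted p = 0.127, 0.0518 and 0.0702). OLR1 also missed it without siNTRK2_Sen replicate 2 or 3 or siBDNF_Sen replicate 1 (adjusted p = 0.0541, 0.121 and 0.0760). By class, 6 of 12 mitochondrial and 3 of 23 nuclear members were higher with siNTRK2, and 1 and 4 were lower. Of the 321 other induced genes, 158 (49.2%) were lower and 29 (9.03%) were higher with siNTRK2. That share is no test of the members, since a gene that only siNTRK2 lowered could not enter the set. For members that did not pass, such as ASS1 (-0.09 ± 0.06; adjusted p = 0.329), RGS5 (0.16 ± 0.08; adjusted p = 0.174) and MT-RNR1 (0.02 ± 0.08; adjusted p = 0.902), a like level with both siRNAs was not shown.

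**Figure D4:**
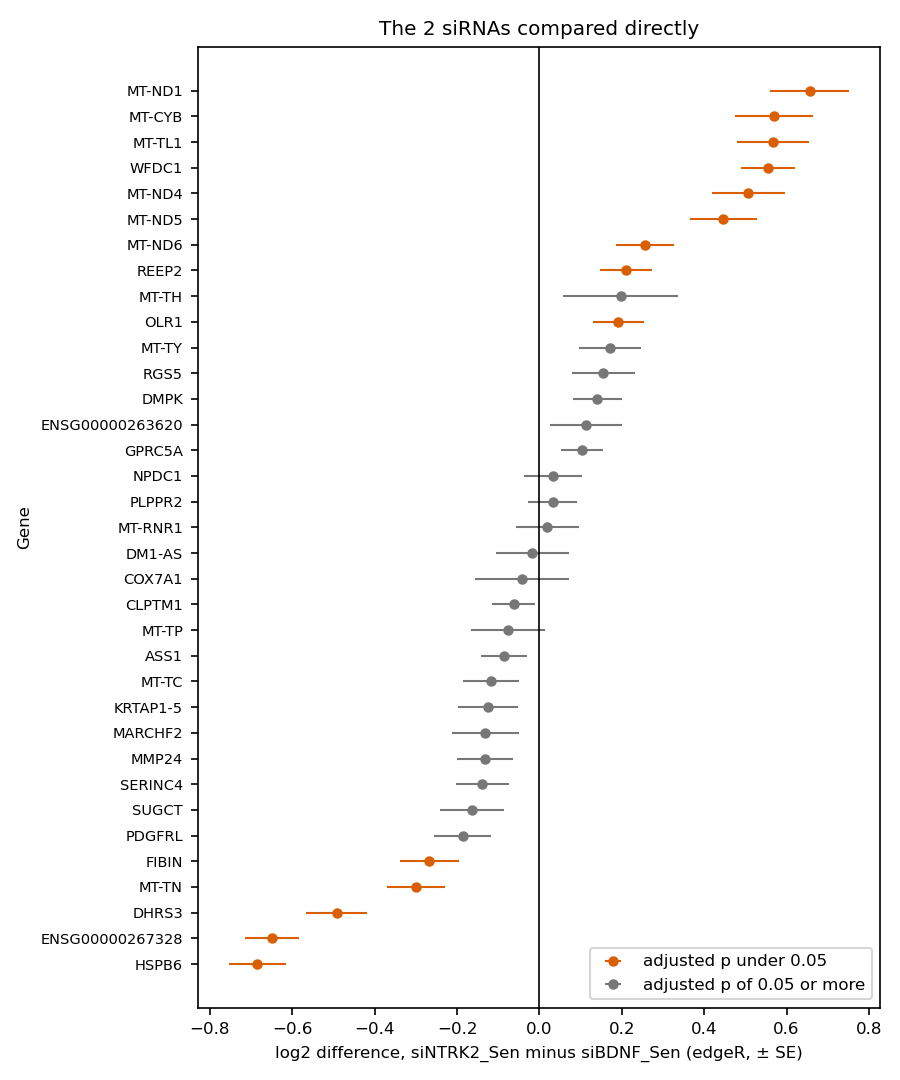
The log2 difference between siNTRK2_Sen and siBDNF_Sen from the edgeR fit (horizontal axis, point with SE) is drawn for each of the 35 genes (vertical axis). HSPB6 and ENSG00000267328 lie furthest to the left at -0.69 and -0.65, MT-ND1 and MT-CYB furthest to the right at 0.66 and 0.57, and orange points passed the adjusted p of 0.05.

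The rule did not use position, length or base composition. On chromosome 19 lay 8 of the 23 (34.8%; HSPB6, ENSG00000267328, CLPTM1, PLPPR2, DMPK, MARCHF2, DM1-AS and COX7A1), against 6.95% of annotated nuclear genes at the floor and 24 of the 171 annotated ones (14.04%) lowered by both siRNAs, with or without a senescence rise, although HSPB6 with ENSG00000267328 and DMPK with DM1-AS overlap each other. Their median exonic length was 2976 bases and their median exonic GC content 58.6%, against 5172.5 bases and 48.1% over nuclear genes at the floor. These 171 genes, members included, had medians of 2983 bases and 55.7%, close to the members in both, and 280 other annotated induced genes that the siRNAs did not both raise had 4060 bases and 51.2%. The 22 induced genes that both siRNAs raised by the mirrored rule had medians of 8385 bases and 43.7%. Genes that are no members moved with the same features: 1132 nuclear genes under 3 kb with GC content over 55% had median log2 ratios of 0.15 with senescence, -0.12 with siNTRK2 and -0.06 with siBDNF, and 6612 longer genes of lower GC content had -0.07, 0.06 and 0.09. With a length and GC trend removed from each library, 17 nuclear genes met the rule, of which 11 were among the 23. The median ratios of the 23 were then 1.05, -0.49 and -0.34. Of the 8 on chromosome 19, only the overlapping pair DMPK and DM1-AS still met the rule. HSPB6, which dropped out, had 0.88, -0.89 and -0.22.

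Promoter windows, from 250 bases before to 50 after the RefSeq start site (GRCh38.p14), were matched for 14 of the 23 nuclear members and searched on both strands for 12 motifs. The letters TTCNNNGAA, the palindromic core bound by STAT factors, occurred in 4 of the 14 genes (28.6%), RGS5, REEP2, NPDC1 and CLPTM1, against 8.38% of 8596 genes at the floor with a window, 7.08% of 226 other induced genes and 7.66% of all 35116 windows. The GC box GGGCGG was in 11 of 14 genes (78.6%) against 78.5% of genes at the floor, and the CCAAT box in 7 (50%) against 42.8%. TATAAA was in HSPB6 and KRTAP1-5 (14.3% against 8.09%), and the AP-1 letters TGANTCA in DHRS3 alone (7.14% against 6.81%). TEAD letters GGAATG were in 4 genes (28.6% against 15.3%), E-box letters CACGTG in 1 (7.14% against 13.03%) and TTGCNNAA of C/EBP factors in 1 (7.14% against 9.80%). No window of the 14 held TGACGTCA or a match to the NF-kB, SRF CArG box or MEF2 consensus. A gene counted as having a motif if any of its windows held the letters. RGS5 and CLPTM1 each also had a window at another start site without TTCNNNGAA. With the length and GC trend removed, RGS5 still met the rule, and REEP2, NPDC1 and CLPTM1 did not. These counts describe letters in short windows of few genes, and GC content was not matched. The 4 windows with TTCNNNGAA are printed with the match, which overlapped no other motif match, in capitals (RGS5 chr1:163321686-163321985, minus strand; REEP2 chr5:138438807-138439106, plus strand; NPDC1 chr9:137046128-137046427, minus strand; CLPTM1 chr19:44954743-44955042, plus strand):
RGS5: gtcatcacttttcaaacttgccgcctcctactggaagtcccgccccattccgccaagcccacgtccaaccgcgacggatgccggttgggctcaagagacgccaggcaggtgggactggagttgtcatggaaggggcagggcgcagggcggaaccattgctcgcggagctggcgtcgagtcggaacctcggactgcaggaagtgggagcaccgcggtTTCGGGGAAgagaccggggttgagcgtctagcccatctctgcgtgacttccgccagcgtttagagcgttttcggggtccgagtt
REEP2: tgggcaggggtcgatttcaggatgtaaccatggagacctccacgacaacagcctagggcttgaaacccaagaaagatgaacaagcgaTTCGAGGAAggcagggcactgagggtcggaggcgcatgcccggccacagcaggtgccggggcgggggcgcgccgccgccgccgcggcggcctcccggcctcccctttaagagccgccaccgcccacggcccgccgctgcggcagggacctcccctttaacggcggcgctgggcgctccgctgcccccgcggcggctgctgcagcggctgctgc
NPDC1: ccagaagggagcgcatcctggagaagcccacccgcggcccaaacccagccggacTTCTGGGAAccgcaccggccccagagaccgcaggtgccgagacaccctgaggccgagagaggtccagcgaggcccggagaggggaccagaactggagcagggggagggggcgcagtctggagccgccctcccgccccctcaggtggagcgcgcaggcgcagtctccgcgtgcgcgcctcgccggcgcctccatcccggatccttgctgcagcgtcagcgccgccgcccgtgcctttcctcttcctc
CLPTM1: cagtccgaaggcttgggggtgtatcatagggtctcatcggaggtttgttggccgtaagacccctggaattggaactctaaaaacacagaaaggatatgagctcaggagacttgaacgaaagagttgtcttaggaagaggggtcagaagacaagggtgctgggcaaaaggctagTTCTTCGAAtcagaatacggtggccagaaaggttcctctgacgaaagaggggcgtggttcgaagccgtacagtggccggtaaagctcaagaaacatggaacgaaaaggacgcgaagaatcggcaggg

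Other genes of the plasminogen activator system, the pathway of PLAT, did not include one that fell with both siRNAs. Of 17 listed genes besides PLAT 13 were tested. With senescence 9 were higher and 3 lower (edgeR, adjusted p under 0.05; 29.8% of all genes tested were higher and 28.3% lower), with siNTRK2 3 were higher and 1 lower (11.1% and 10% of all genes), and with siBDNF 6 were higher and 2 lower (10.3% and 10.2%). SERPINE2, an inhibitor of plasminogen activators, was at 158 ± 4.08 CPM in siCtrl_Prolif, 1053 ± 12.4 in siCtrl_Sen, 1074 ± 23.3 in siNTRK2_Sen and 1822 ± 10.3 in siBDNF_Sen. It rose by 0.73 ± 0.04 on the log2 scale with siBDNF (adjusted p = 1.26e-12), and its value with siNTRK2 was 0.01 ± 0.04 (adjusted p = 0.885). SERPINB2, another inhibitor, was the 1 gene that fell with siNTRK2 (-0.51 ± 0.06; adjusted p = 1.50e-06), and it rose with siBDNF (0.47 ± 0.06; adjusted p = 4.62e-06). PLAU, the urokinase activator, rose with siBDNF by 0.30 ± 0.04 (adjusted p = 3.34e-06), and its receptor PLAUR had values of 0.11 ± 0.05 and 0.13 ± 0.05 that did not pass (adjusted p = 0.0985 and 0.0608). The clearance receptor LRP1 rose with both siRNAs, by 0.54 ± 0.07 (adjusted p = 4.18e-06) and 0.64 ± 0.07 (adjusted p = 3.97e-07).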

How the data were processed

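Bulk RNA from 12 WI-38 libraries was measured. The deposited values are counts, integer read numbers for each Ensembl gene, produced by the authors from stranded mRNA libraries by trimming with cutadapt, aligning to hg19 with STAR 2.4.0j and counting with featureCounts 1.6.4, per the labels. The strand setting of the counting was not given in the sources used here.

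CPM were computed over column totals for the rule. Symbols came from a table of gene names (55538 of 57773 genes), and positions, lengths and GC content from the GENCODE annotation of GRCh37. The test of siNTRK2_Sen against siBDNF_Sen used the edgeR 4.0.16 quasi-likelihood model in R 4.3.3 with TMM and filterByExpr over the 4 groups, 1 term per group and all 12 libraries, on 21518 genes, and was tested on simulated data. The alternatives were DESeq2 1.42.0, other scalings, filters and limits, fits of fewer groups or libraries and a replicate block. All libraries of a group differed by more than sampling noise.

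The members and gene lists were chosen with earlier results of these data known. Genes named in full were the 10 members with the highest siCtrl_Sen level, the 10 lowest by the mean of both silencing ratios, the 10 with the largest rise, up to 10 by adjusted p in each direction, list members, genes at the limits and the plasminogen list. The other members, MT-CO1, MMP24OS, the respiratory chain list and the motif whose windows are printed were picked with their values in view.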

Additional observations from a re-analysis of the deposited data

How the results depend on the processing

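The number of members was 35 as reported, 41 with TMM, 43 with DESeq2 size factors, 33 at a level floor of 10 CPM and 57 at a floor of 1 CPM. A silencing ratio of -0.5 or below left 5 and a rise of 4 times left 0. TMM kept 30 of the 35 and lost CLPTM1, GPRC5A, KRTAP1-5, PDGFRL and SERINC4, and DESeq2 size factors kept 32. Leaving out 1 library gave 29 to 48 members. The highest count came without siCtrl_Sen replicate 2, and 17 members met the rule in all 12 such runs and with both scalings. Not among these 17 were MT-ND4 and MT-CYB (11 runs), HSPB6 and MT-ND1 (10 runs), MT-TN (9 runs) and CLPTM1 (7 runs). Without siCtrl_Prolif replicate 1, MT-ND1, MT-ND4, MT-CYB and GPRC5A dropped out. CPM over nuclear counts (43) and removal of the length and GC trend (17 nuclear genes against 23) were chosen after seeing the data.

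In the direct comparison DESeq2 called 5 lower and 8 higher members, library totals 6 and 7, and single-library omissions 4 to 6 and 6 to 9. Same-numbered libraries showed no common deviation (mean correlation 0.026, range -0.258 to 0.246), which does not show whether they came from 1 experiment. With a replicate block 5 were lower and 9 higher. Sign changes arose in members called under no setting. With library totals the log2 differences became -0.0063 for PLPPR2, -0.0057 for NPDC1 and -0.020 for MT-RNR1. Omitting 1 library gave ranges that crossed 0 in PLPPR2 (-0.021 to 0.093), NPDC1 (-0.061 to 0.144), COX7A1 (-0.087 to 0.022), MT-TP (-0.153 to 0.036), MT-RNR1 (-0.083 to 0.083) and DM1-AS (-0.095 to 0.041). REEP2 and OLR1 missed the threshold with library totals, OLR1 also without a filter on low counts, and MT-ND6 did with DESeq2. The median siBDNF ratio over the members moved from -0.41 to -0.47 with TMM and with DESeq2 size factors. The median difference between the siRNAs was -0.08 without siBDNF_Sen replicate 3. The causes were not tested. NTRK2 lay near the counting floor, so the depth does not allow a precise value of its knockdown.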
